A study of Arabidopsis thaliana with 12 samples.

Results

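The triple mutant sapx tapx pgr5 was compared with wild type after strong light, across all genes of the deposited tables. The comparison takes the 3 libraries labelled sapx tapx pgr5 and the 3 labelled wild type, which are 6 of the 12 libraries of the study. The other libraries, 3 of pgr5 and 3 of sapx tapx, come from the parent genotypes and are used where the triple mutant is set against them. All were made from fully expanded rosette leaves of Arabidopsis thaliana. Per the labels, every genotype stood for 18 days in dim light (40 to 60 µmol photons m-2 s-1) and then for 90 min in strong light (1500 µmol photons m-2 s-1). The labels name no alleles and do not say how many plants a library pools. Leaves kept in dim light were not analysed here, so each difference is between genotypes after the exposure and not a response to light.

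Chloroplasts in excess light pass electrons to oxygen at photosystem I and make superoxide, which becomes hydrogen peroxide. SAPX in the stroma and TAPX on the thylakoid membrane are ascorbate peroxidases, which reduce this peroxide to water with ascorbate. PGR5 supports the cyclic flow of electrons around photosystem I, which acidifies the thylakoid lumen and protects that photosystem. Heat stress factors are transcription factors that bind repeats of the bases GAA in promoters and switch on chaperones. In plants they also act under oxidative stress.

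The 6 libraries held 5534211 to 6828070 exon reads, and 3 reads in a library corresponded to 0.439 to 0.542 CPM (a gene's exon reads divided by all exon reads of the library, times 1000000). The levels below are CPM with TMM scaling, given in the order of replicates 1, 2 and 3. The targeted genes were checked first. SAPX (AT4G08390, TAIR10 chromosome 4, 5314905 to 5317456) had 17.62, 28.6 and 16.1 CPM in sapx tapx pgr5, against 205, 238 and 198 CPM in wild type. TAPX (AT1G77490, chromosome 1, 29117542 to 29120215) had 27.0, 27.2 and 24.4 CPM in sapx tapx pgr5, against 182, 155 and 173 CPM in wild type. Both were lower in every triple mutant library (-3.36 ± 0.21, adjusted p = 2.04e-06 for SAPX and -2.70 ± 0.09, adjusted p = 2.73e-08 for TAPX, as log2 fold changes ± SE). PGR5 (AT2G05620, chromosome 2, 2081009 to 2081858) had 234, 281 and 209 CPM in sapx tapx pgr5, against 244, 241 and 244 CPM in wild type, so its RNA level does not check the pgr5 label.

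In each group the second library stood apart. The 27 tested genes of rapid stress and touch responses had a mean log2(CPM + 0.5) of 4.58, 2.78 and 4.53 in sapx tapx pgr5 and 2.13, 4.58 and 2.1 in wild type. Over 29 jasmonate genes it was 5.68, 4.13 and 5.04 in sapx tapx pgr5 and 3.91, 6.39 and 3.73 in wild type. The second triple mutant library was thus the lowest of its group in both lists and the second wild type library the highest of its own. The part of this spread in any other result was not tested, and results are given without these libraries where that ends a call or moves a count by more than 1.5 times. The labels name no sequencing run, so a run and a genotype cannot be told apart.

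A gene was called at an adjusted p under 0.05 (edgeR quasi-likelihood test over all 12 libraries, Benjamini-Hochberg adjustment over 16350 genes). Of the 16350 genes tested, 1685 were called, which is a background of 10.3%. The triple mutant was higher for 1016 genes (6.21%) and lower for 669 (4.09%). The median log2 fold change was 0.87 over the genes called higher, -0.67 over those called lower and 0.0063 over all genes tested. Large differences were mostly gains: 415 genes were higher by 2-fold or more and 124 lower, and at 8-fold or more the counts were 60 and 10. The 3 libraries of each group did not overlap for 1005 of the genes called higher and 666 of those called lower, beside 27.2% of all genes tested. The count changed by more than 1.5 times without sapx tapx pgr5 replicate 1 (865 genes) or replicate 3 (975), without replicate 1 (1061) or 3 (879) of wild type, and without both second replicates (2599). Genes called higher made up 60.3% of the calls. This share was 39.6% with library size scaling only, 42.2% with limma on RPKM, which changes both the values and the test, and 73.3% with the 6 libraries fitted alone.

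**Figure D1:**
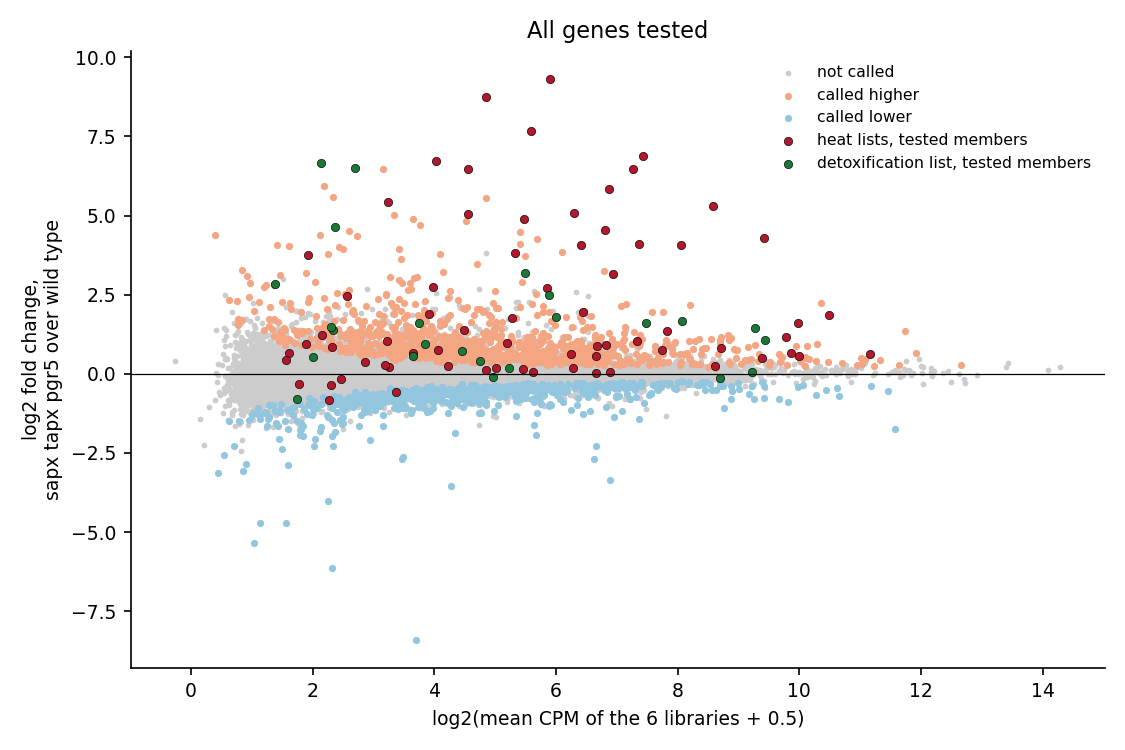
Log2 fold change of sapx tapx pgr5 over wild type (vertical axis) for each of the 16350 genes tested, against its mean level as log2(CPM + 0.5) (horizontal axis). Coloured points are the 1016 genes called higher and the 669 called lower, and tested members of the heat lists and of the detoxification list are marked; most points far above 0 belong to these lists or to genes called higher, and few genes lie far below 0.

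Against the parent genotypes the same triple mutant libraries gave fewer calls. Against pgr5, 252 genes were called (1.54%), 220 higher (1.35%) and 32 lower (0.196%). Against sapx tapx, 1293 genes were called (7.91%), 782 higher (4.78%) and 511 lower (3.13%). On leaving out 1 library, the calls against pgr5 numbered 116 without sapx tapx pgr5 replicate 1, 154 without its replicate 3, and 127, 115 and 112 without replicates 1, 2 and 3 of pgr5. Those against sapx tapx numbered 790 without sapx tapx pgr5 replicate 1, 746 without its replicate 3, and 851 and 747 without replicates 1 and 3 of sapx tapx. Without both second replicates of the triple mutant and wild type, 647 genes were called against pgr5. Set against wild type, pgr5 had 638 called genes (3.9%), 399 higher (2.44%) and 239 lower (1.46%). The sapx tapx parent had 6 (0.0367%), 3 in each direction (0.0183% each). The comparisons of the triple mutant share the triple mutant libraries, so their values are set side by side below.

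Small heat shock proteins, which hold unfolding proteins so that they do not clump, gave the steepest gains. The list held 18 members, of which 15 passed the filter on low counts, 12 were called higher and 1 lower. The median log2 fold change of the tested members was 5.43. Against pgr5 12 and against sapx tapx 12 members were called higher. Genes with few wild type reads, here and in other lists, can pass the filter through the genotypes where they are high. The counts and medians may thus be set in part by the filter. With no filter 18 members of this list were tested, 12 were called higher and 0 lower against wild type, and the median was 5.17. Summed over all 18 members, the list stood at 1625, 1328 and 1782 CPM in sapx tapx pgr5, against 90.53, 67.3 and 89.1 CPM in wild type. The groups lay far apart, with the lowest triple mutant sum above every wild type sum. In sapx tapx the 3 sums were 80.5, 104 and 82.5 CPM, near those of wild type, and in pgr5 they were 229, 278 and 354 CPM.

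Of the cytosolic members, HSP17.4 had 91.1, 60.9 and 132 CPM in sapx tapx pgr5, against 0.333, 0 and 0.945 CPM in wild type (7.69 ± 0.58, adjusted p = 1.01e-05). HSP17.6II had 266, 288 and 361 CPM in sapx tapx pgr5, against 2.33, 3.12 and 4.72 CPM in wild type (6.48 ± 0.35, adjusted p = 8.63e-07). For both, every triple mutant library lay far above every wild type library. HSP17.4 had fewer than 3 reads in 2 of the 3 wild type libraries. HSP23.6, which is sent to mitochondria, had 34.7, 25.2 and 34.4 CPM in sapx tapx pgr5, against 0.5001, 0.346 and 0 CPM in wild type (6.73 ± 0.54, adjusted p = 1.53e-05). The member called lower, AT5G54660, had 9.87, 7.39 and 6.47 CPM in sapx tapx pgr5, against 11.7, 11.8 and 11.5 CPM in wild type (-0.56 ± 0.16, adjusted p = 0.0488). Its groups lie close together, and the call was lost on leaving out sapx tapx pgr5 replicate 2 (0.111), sapx tapx pgr5 replicate 3 (0.146), wild type replicate 1 (0.0973), wild type replicate 2 (0.0734) or wild type replicate 3 (0.104) (adjusted p in brackets). Of the members outside the test, HSP22.0 had 15 reads over the triple mutant libraries and 0 over those of wild type, at least 4.81-fold higher when 3 reads over the group are taken as the floor. HSP21, a small heat shock protein of the chloroplast, had 8 reads against 0, at least 2.57-fold higher on the same floor.

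Promoter sequence is shown for 5 genes with steep gains, because heat stress factors are known to bind GAA repeats. They were picked because their windows hold a long form of this element, which most genes with steep gains lack. Each window lies within the 250 bases before the deposited start of the gene and outside other genes. It ends before the RefSeq start of the gene where that is further upstream. Windows are read on the gene's strand from RefSeq's TAIR10.1 genome, whose nuclear coordinates match those of the tables. Capitals mark GAANNTTC on either strand, or GAANNTTC followed 2 bases on by GAA. The windows are chr1:19980212-19980298, plus strand for AT1G53540; chr3:16984868-16985091, minus strand for HSP17.4; chr1:26770178-26770361, minus strand for AT1G71000, a J-domain co-chaperone gene; chr2:11135466-11135623, plus strand for HSFA2; and chr5:1601955-1602204, plus strand for DREB2A.
AT1G53540: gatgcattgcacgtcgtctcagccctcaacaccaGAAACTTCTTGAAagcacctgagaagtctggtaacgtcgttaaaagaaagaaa
HSP17.4: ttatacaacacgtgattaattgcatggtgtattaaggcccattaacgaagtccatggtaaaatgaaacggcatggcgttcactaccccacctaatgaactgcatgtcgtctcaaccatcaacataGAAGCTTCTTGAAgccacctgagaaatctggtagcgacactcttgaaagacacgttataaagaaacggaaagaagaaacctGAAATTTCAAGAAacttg
AT1G71000: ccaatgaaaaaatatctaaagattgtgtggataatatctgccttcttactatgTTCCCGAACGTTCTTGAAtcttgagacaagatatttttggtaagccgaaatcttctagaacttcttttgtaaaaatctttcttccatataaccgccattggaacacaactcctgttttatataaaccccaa
HSFA2: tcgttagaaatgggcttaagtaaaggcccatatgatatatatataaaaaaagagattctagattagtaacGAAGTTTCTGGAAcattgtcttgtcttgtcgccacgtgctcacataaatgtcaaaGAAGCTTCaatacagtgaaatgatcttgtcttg
DREB2A: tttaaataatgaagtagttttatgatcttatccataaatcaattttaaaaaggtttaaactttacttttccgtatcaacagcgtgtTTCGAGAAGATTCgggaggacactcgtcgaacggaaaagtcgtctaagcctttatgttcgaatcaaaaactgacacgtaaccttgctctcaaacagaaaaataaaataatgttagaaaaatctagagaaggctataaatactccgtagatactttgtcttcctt

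The GAANNTTC core was present in 13.4% of the windows of genes called higher (136 of 1015) and 7.62% of those called lower (51 of 669), beside 1570 of 16349 windows of all genes tested (9.603%). Among genes called higher by 8-fold or more it was in 20 of 60 windows (33.3%). The G-box CACGTG, which light and stress factors bind, had similar shares, with 13.3% of windows of genes called higher, 8.67% of those called lower and 9.55% of all. It was in 7 of the 60 windows of genes higher by 8-fold or more (11.7%). The core followed 2 bases on by GAA was in 29 windows of genes called higher (2.86%) and 1 of those called lower (0.149%), beside 0.526% of all, and likewise in 7 of those 60. Only the windows shown as sequence are cut, where another gene begins or at a RefSeq start further upstream, so their lengths differ. The windows counted here and below have a fixed length and are not cut. They can thus hold sequence of a neighbouring gene or, past its RefSeq start, of the gene itself. A match is a match of letters only.

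A second motif, CTTG and CANG with 5 bases between them, is bound by NAC factors that answer to the state of mitochondria. Among small heat shock genes called higher, 3 of 12 windows hold it. It is shown for 2 of these, whose proteins are sent to mitochondria, HSP23.6 (chr4:12916767-12916925, plus strand) and AT5G51440 (chr5:20891008-20891162, plus strand), with its letters in capitals. AT5G51440 was chosen after its values were seen and had 88.3, 60.2 and 107 CPM in sapx tapx pgr5, against 2.33, 1.90 and 4.25 CPM in wild type (4.89 ± 0.35, adjusted p = 5.93e-06).
HSP23.6: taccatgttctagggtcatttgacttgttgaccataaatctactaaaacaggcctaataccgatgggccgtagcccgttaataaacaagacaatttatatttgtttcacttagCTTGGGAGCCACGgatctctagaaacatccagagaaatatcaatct
AT5G51440: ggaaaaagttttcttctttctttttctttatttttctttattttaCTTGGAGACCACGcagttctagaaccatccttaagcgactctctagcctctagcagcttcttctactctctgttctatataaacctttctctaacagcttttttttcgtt
This motif, searched on both strands, was in 6 of 60 windows of genes called higher by 8-fold or more and in 1.48% of all windows of genes called higher. It was in 0.598% of windows of genes called lower and 1.19% of all.

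The larger chaperones, which refold proteins with ATP, were also mostly higher. All 33 members of the list of HSP70, HSP90, HSP100 and co-chaperones were tested, 26 were called higher and 0 lower, and the median was 0.90. HSP101 (AT1G74310, chromosome 1, 27936508 to 27940190), the disaggregase that pulls proteins out of clumps, had 302, 252 and 373 CPM in sapx tapx pgr5, against 21.3, 9.17 and 23.0 CPM in wild type (4.11 ± 0.29, adjusted p = 5.93e-06). HSP90.1, the inducible cytosolic HSP90, had 793, 617 and 824 CPM in sapx tapx pgr5, against 18.8, 10.6 and 27.4 CPM in wild type (5.29 ± 0.30, adjusted p = 1.15e-06). The gene named HSP70, an inducible cytosolic member, had 1349.7, 1022 and 1541 CPM in sapx tapx pgr5, against 71.7, 36.0 and 93.2 CPM in wild type (4.28 ± 0.32, adjusted p = 9.46e-06). Each of these had its lowest triple mutant library several times above its highest wild type library.

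The co-chaperones HOP3, which links HSP70 to HSP90, and ROF2, an immunophilin that binds HSP90, were also called. HOP3 had 216, 174 and 249.6 CPM in sapx tapx pgr5, against 8.503, 6.92 and 11.7 CPM in wild type (4.55 ± 0.29, adjusted p = 2.18e-06). ROF2 had 460.1, 464 and 583 CPM in sapx tapx pgr5, against 27.3, 17.1 and 45.7 CPM in wild type (4.06 ± 0.31, adjusted p = 1.01e-05). The J-domain protein gene AT1G71000 had 55.0, 39.7 and 42.1 CPM in sapx tapx pgr5, against 0.167, 0.173 and 1.102 CPM in wild type (6.47 ± 0.38, adjusted p = 1.61e-06). Chaperones that are abundant without stress were called too. HSP90.2, a cytosolic HSP90 that is nearly identical to its neighbours, had 2060.5, 2367 and 2318 CPM in sapx tapx pgr5, against 617, 470.3 and 753 CPM in wild type (1.87 ± 0.15, adjusted p = 1.53e-05). Reads of such copies could be split by the counting, and the call held with unique exon reads. The list held 16451, 15838 and 18626 CPM in sapx tapx pgr5, against 7441, 6334 and 8363 CPM in wild type.

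Measured against its parents, the triple mutant had 14 members of this list higher than pgr5 and 27 higher than sapx tapx. HSP101 averaged 93.5 ± 18.9 CPM in pgr5 and 15.8 ± 1.196 CPM in sapx tapx (SD, n = 3 each), and its log2 fold change of the triple mutant over pgr5 was 1.72 ± 0.26, adjusted p = 0.00480. HSP90.1 averaged 172 ± 33.3 CPM in pgr5 and 17.1 ± 2.66 CPM in sapx tapx, with a log2 fold change over pgr5 of 2.11 ± 0.25, adjusted p = 0.00106. For both, the pgr5 mean lay between those of the triple mutant and wild type.

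Of 28 heat stress factors and partner regulators, 21 were tested, 6 were called higher and 0 lower (median 0.66). HSFA2 (AT2G26150, chromosome 2, 11135682 to 11137396), the factor that prolongs chaperone transcription, had 152, 138 and 168 CPM in sapx tapx pgr5, against 5.17, 1.56 and 6.61 CPM in wild type (5.08 ± 0.32, adjusted p = 2.04e-06). MBF1C, a coactivator of heat tolerance, had 179, 148 and 152 CPM in sapx tapx pgr5, against 11.5, 4.15 and 12.8 CPM in wild type (4.06 ± 0.37, adjusted p = 3.77e-05). HSFA7A had 5.11, 8.16 and 5.26 CPM in sapx tapx pgr5, against 0.5001, 0.173 and 0.630 CPM in wild type (3.75 ± 0.43, adjusted p = 0.000248). DREB2A, a drought and heat factor that acts upstream of HSFA3, had 24.5, 21.9 and 33.1 CPM in sapx tapx pgr5, against 4.50, 2.42 and 4.72 CPM in wild type (2.76 ± 0.33, adjusted p = 0.000302). The repressor class member HSFB2B had 34.0, 32.9 and 27.7 CPM in sapx tapx pgr5, against 12.2, 9.52 and 14.5 CPM in wild type (1.38 ± 0.17, adjusted p = 0.000481). For these 5 no triple mutant library overlapped one of wild type. The list's count was 10 higher and 1 lower without both second replicates.

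**Figure D2:**
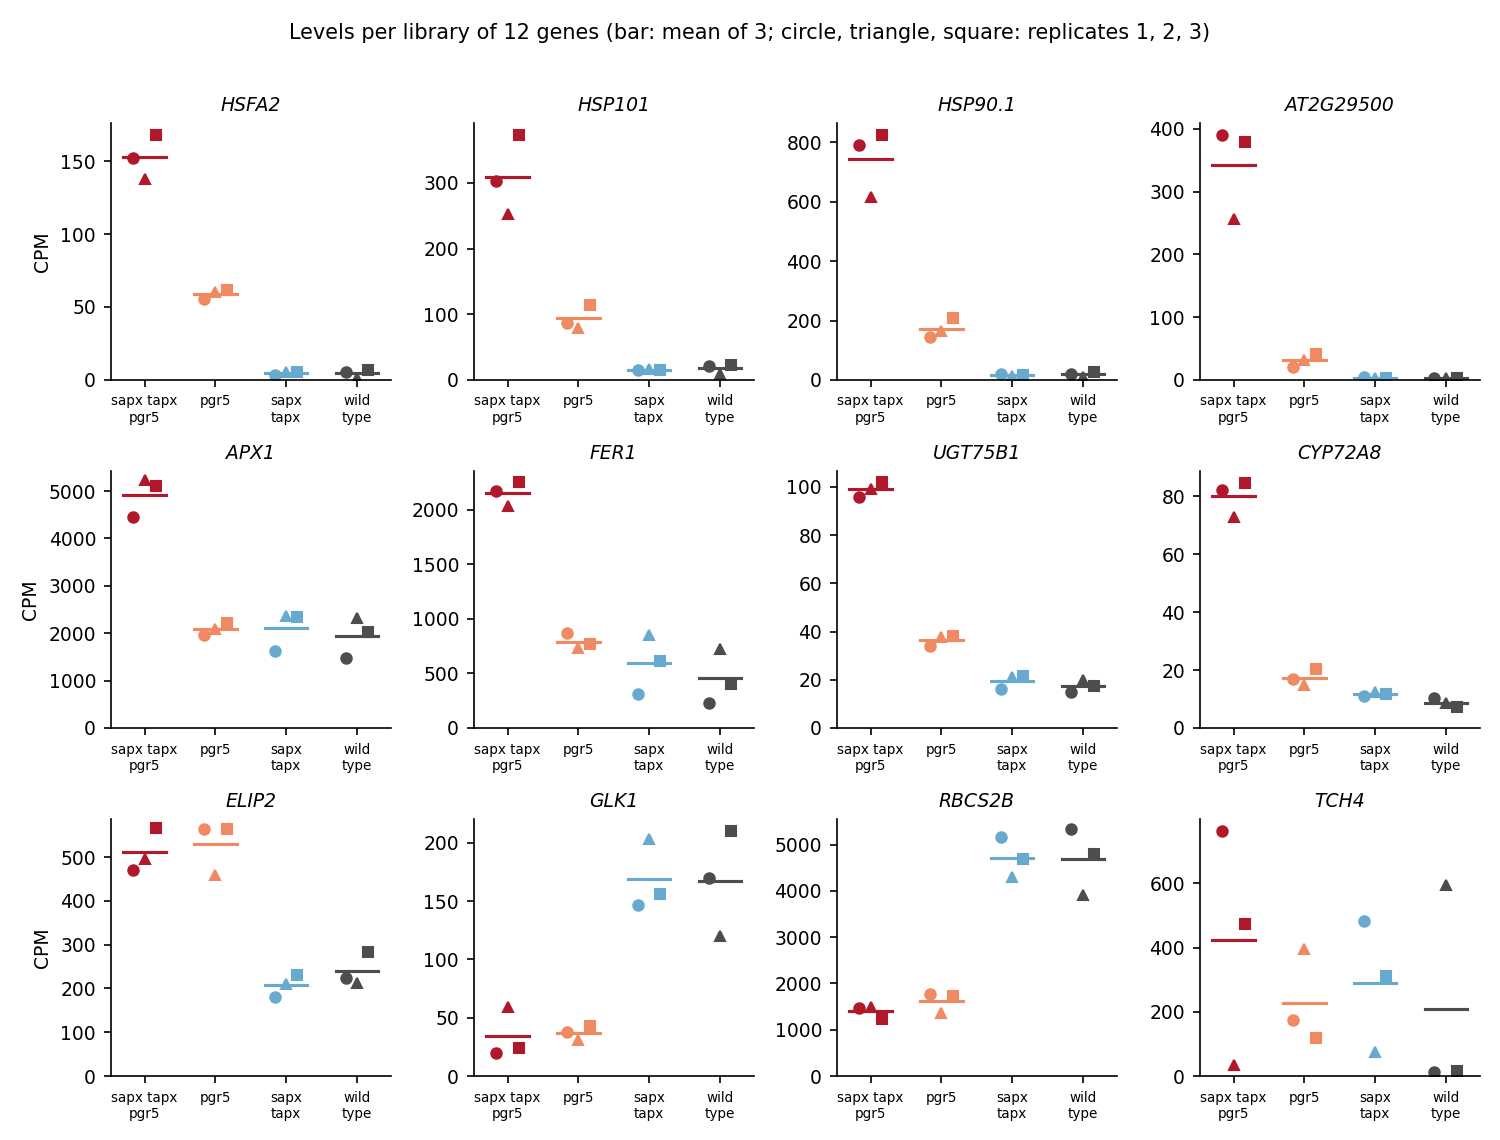
Level in CPM of 12 genes in each library of sapx tapx pgr5, pgr5, sapx tapx and wild type; circle, triangle and square mark replicates 1, 2 and 3 and the bar marks the mean. HSFA2, HSP101, HSP90.1 and AT2G29500 are highest in all sapx tapx pgr5 libraries. GLK1 and RBCS2B are lower in sapx tapx pgr5 and in pgr5 than in wild type, and TCH4 spreads widely within groups.

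Summed over the 79 genes of the 3 heat lists, heat genes took 1.83%, 1.72% and 2.06% of exon reads in sapx tapx pgr5, against 0.797%, 0.700% and 0.907% in wild type. The means were 1.87% ± 0.17 in sapx tapx pgr5, 1.22% ± 0.11 in pgr5, 0.739% ± 0.055 in sapx tapx and 0.801% ± 0.104 in wild type (SD, n = 3 each). The difference between the triple mutant and wild type was 1.07 percentage points, with no overlap between their libraries. An exact two-sided permutation test gave p = 0.1, the smallest p that 3 against 3 can give. The heat lists were chosen with earlier results of these data known, so the separation and this p are description only.

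**Figure D3:**
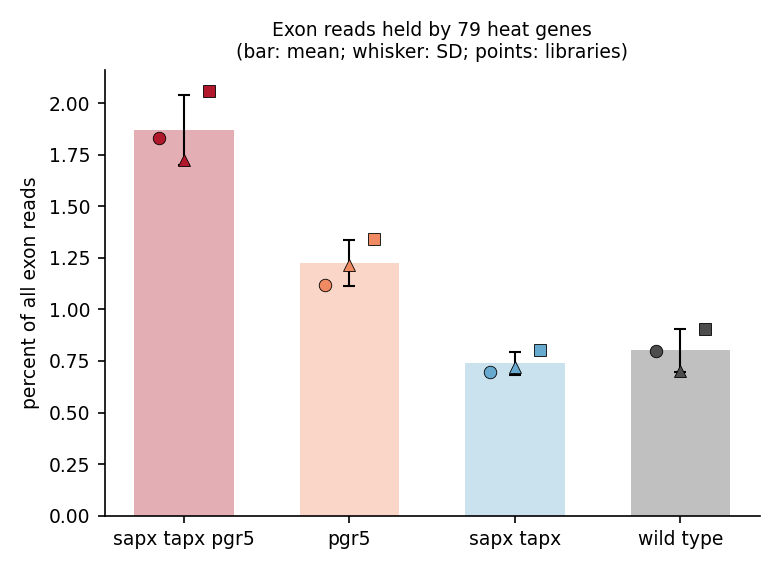
Share of exon reads held by the 79 genes of the 3 heat lists, in percent, for sapx tapx pgr5, pgr5, sapx tapx and wild type; bars are means, error bars SD over 3 libraries and points single libraries. The sapx tapx pgr5 libraries sit between 1.72% and 2.06%, and no wild type library exceeds 0.907%.

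Intron reads come largely from unspliced RNA and are not part of the exon reads. They made up 1.09% to 1.54% of gene reads and allowed a test of 2288 genes, of which 30 were called higher (1.31%) and 4 lower (0.175%), 1.49% in all. HSFA2 had 20, 17 and 29 intron reads in sapx tapx pgr5 and 0 in each wild type library. AT1G71000 had 46, 53 and 38 intron reads in sapx tapx pgr5 and likewise 0 in each wild type library. ROF2 had 90, 62 and 80 intron reads in sapx tapx pgr5, against 0, 0 and 3 in wild type. These heat genes were thus set apart in unspliced reads too. They had too few intron reads in wild type to pass the filter on low counts there, so they entered the test through genotypes where they were high. Other genes can enter in this way, so the signs counted next may be set in part by the filter and are description only. Among genes called higher by exon reads and testable by introns, 219 of 258 had a positive intron log2 fold change and 25 were called higher. Among those called lower 82 of 88 were negative and 2 were called lower. Of 1742 genes not called by exon reads, 774 were positive and 968 negative. Exon and intron reads come from the same libraries. The light-harvesting gene LHCB3, chosen after its values were seen, had 82, 136 and 139 intron reads in sapx tapx pgr5, against 220, 328 and 297 in wild type (-1.23 ± 0.19, adjusted p = 0.00438). By exon reads LHCB3 was not called (-0.29 ± 0.15, adjusted p = 0.237). The number of intron calls was 15 without sapx tapx pgr5 replicate 1, 15 without its replicate 3, 56 without its replicate 2, 16 without wild type replicate 3 and 130 without wild type replicate 2.

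Detoxification enzymes, which join sugars or glutathione to reactive molecules or reduce them, formed the second group of steep gains. The list held 40 members, of which 24 were tested, 14 were called higher and 0 lower, with a median of 1.42. Against pgr5 14 and against sapx tapx 16 members were called higher. Summed, the list stood at 4357, 3983 and 3779.9 CPM in sapx tapx pgr5, against 2186, 2314 and 2118 CPM in wild type. The cytochrome P450 gene CYP81D11 had 15.7, 3.85 and 7.22 CPM in sapx tapx pgr5, against 0, 1.04 and 0 CPM in wild type (4.65 ± 0.83, adjusted p = 0.00471). CYP81D8 had 3.17, 4.77 and 3.16 CPM in sapx tapx pgr5, against 0.333, 0.692 and 0.472 CPM in wild type (2.85 ± 0.37, adjusted p = 0.000619), and CYP72A8 had 82.3, 72.9 and 84.8 CPM in sapx tapx pgr5, against 10.5, 8.65 and 7.09 CPM in wild type (3.19 ± 0.16, adjusted p = 4.19e-07). UGT75B1, a glucosyltransferase, had 95.7, 99.3 and 102 CPM in sapx tapx pgr5, against 15, 20.1 and 17.3 CPM in wild type (2.50 ± 0.13, adjusted p = 7.47e-07). All 4 were higher in each triple mutant library than in any wild type library. CYP72A8 averaged 17.3 ± 2.72 CPM in pgr5 and 11.7 ± 0.759 CPM in sapx tapx, and its log2 fold change of the triple mutant over pgr5 was 2.21 ± 0.15, adjusted p = 1.70e-05.

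TGA factors, which govern detoxification genes, bind TGACG. The promoter window of CYP81D11 (chr3:10790554-10790803, minus strand) is shown with this motif in capitals on either strand.
CYP81D11: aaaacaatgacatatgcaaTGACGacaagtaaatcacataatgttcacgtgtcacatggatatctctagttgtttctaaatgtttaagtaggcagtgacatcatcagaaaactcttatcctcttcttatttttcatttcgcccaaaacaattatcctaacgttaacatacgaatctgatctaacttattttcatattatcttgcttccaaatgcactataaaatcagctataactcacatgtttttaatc
TGACG was in 8 of the 14 windows of called members (57.1%), in 21 of 40 windows of all members of the list (52.5%) and in 22.3% of all genes tested. It overlaps the W-box TTGAC where a T precedes it. The GAANNTTC core was in 1 of those 14 (7.14%).

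Among 45 antioxidant and ascorbate genes, 43 were tested, 10 were called higher and 0 lower (median 0.14). The list does not hold SAPX and TAPX. CAT2, the main leaf catalase, had 4508, 4525 and 5200.0 CPM in sapx tapx pgr5, against 2886, 2710.3 and 3389.7 CPM in wild type (0.66 ± 0.11, adjusted p = 0.00286). FSD1, the iron superoxide dismutase of chloroplasts, had 1312, 1198 and 1379 CPM in sapx tapx pgr5, against 881, 1006 and 800.4 CPM in wild type (0.53 ± 0.09, adjusted p = 0.00455). APX1 (AT1G07890, chromosome 1, 2437330 to 2439665), the cytosolic ascorbate peroxidase, averaged 4925 ± 416 CPM in sapx tapx pgr5 and 1935 ± 431 CPM in wild type, with 2083 ± 131 CPM in pgr5 and 2109 ± 414 CPM in sapx tapx (SD, n = 3 each). Its log2 fold change over pgr5 was 1.24 ± 0.17, adjusted p = 0.00241. Of 17 genes for glutathione and sulfate assimilation, 13 were tested and 0 were called by edgeR, DESeq2 or limma, with 2 at an unadjusted p under 0.05.

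Genes that respond to impaired mitochondria were in part higher. Of 20 members 16 were tested, 6 were called higher and 0 lower (median 0.37). Summed, the list stood at 654, 531 and 688 CPM in sapx tapx pgr5, against 350, 617 and 388 CPM in wild type. These ranges overlapped. In sapx tapx the sums were 859, 583 and 775 CPM, and in pgr5 547, 536 and 488 CPM. Against sapx tapx 6 members were called higher and 1 lower (median 0.01), and against pgr5 4 higher and 0 lower. AOX1A, the alternative oxidase, had 125, 121 and 116 CPM in sapx tapx pgr5, against 62.4, 65.1 and 71.2 CPM in wild type (0.87 ± 0.10, adjusted p = 0.000330). NDB2, an external NADH dehydrogenase, had 63.3, 57.7 and 43.6 CPM in sapx tapx pgr5, against 27.2, 27.9 and 28.2 CPM in wild type (0.98 ± 0.14, adjusted p = 0.00117). SOT12, a sulfotransferase, had 38.6, 18.01 and 31.1 CPM in sapx tapx pgr5, against 6.84, 10.4 and 6.77 CPM in wild type (1.87 ± 0.27, adjusted p = 0.00123). The groups did not overlap for AOX1A, NDB2 and SOT12 when read library by library. The list count fell to 4 without any 1 of the sapx tapx pgr5 replicates.

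Proteasome, ubiquitin and autophagy genes gave 7 higher calls and 0 lower among 25 members, all tested (median 0.28). UBQ10, a polyubiquitin gene with close copies, had 746, 657 and 799.6 CPM in sapx tapx pgr5, against 453, 312 and 452 CPM in wild type (0.86 ± 0.13, adjusted p = 0.00145). CDC48A, the ATPase that unfolds ubiquitin-tagged proteins, had 447, 383 and 516 CPM in sapx tapx pgr5, against 255, 239.5 and 273 CPM in wild type (0.81 ± 0.11, adjusted p = 0.000601). Its relative AtCDC48B, in no list, had 72.4, 62.5 and 112 CPM in sapx tapx pgr5, against 4.33, 5.37 and 8.98 CPM in wild type (3.72 ± 0.29, adjusted p = 1.41e-05). With the 6 libraries fitted alone the list's count was 3. Without sapx tapx pgr5 replicate 1 or wild type replicate 1 it was also 3, and leaving out wild type replicate 3 gave 4.

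Among chaperones of the endoplasmic reticulum, lower calls prevailed. Of 18 members 17 were tested, 7 were called lower and 1 higher (median -0.31). The list stood at 1128, 1169.8 and 1149.5 CPM in sapx tapx pgr5, against 1539.6, 1372 and 1739.7 CPM in wild type. In pgr5 it stood at 981, 1103 and 1223 CPM, with 5 members called lower against wild type. Set against pgr5, the triple mutant had 1 member called higher and 0 lower (median 0.06). Against sapx tapx it had 1 higher and 2 lower. CRT1A, a calreticulin that folds glycoproteins, had 73.8, 67.1 and 72.6 CPM in sapx tapx pgr5, against 103, 94.5 and 121 CPM in wild type (-0.58 ± 0.12, adjusted p = 0.00901). BIP2, the HSP70 of the compartment, had 102, 104 and 116 CPM in sapx tapx pgr5, against 191, 140.4 and 232 CPM in wild type (-0.81 ± 0.21, adjusted p = 0.0331). BIP1 and BIP2 are close copies. The call of BIP2 was lost on leaving out sapx tapx pgr5 replicate 1 (0.106), sapx tapx pgr5 replicate 2 (0.0726), sapx tapx pgr5 replicate 3 (0.0684), wild type replicate 1 (0.0779) or wild type replicate 3 (0.127). The one called higher, ERDJ3A, had 9.16, 14 and 14.3 CPM in sapx tapx pgr5, against 4.50, 2.25 and 5.83 CPM in wild type (1.56 ± 0.32, adjusted p = 0.00992). Lower calls numbered 1 without sapx tapx pgr5 replicate 1 or wild type replicate 3, 2 without sapx tapx pgr5 replicate 3, 3 without wild type replicate 1, and 1 with the 6 libraries alone. BIP3, the copy most induced by unfolded proteins, had 11 reads over the triple mutant libraries against 2 over those of wild type, a ratio of 5.30 (95% counting interval 1.16 to 49.2).

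**Figure D4:**
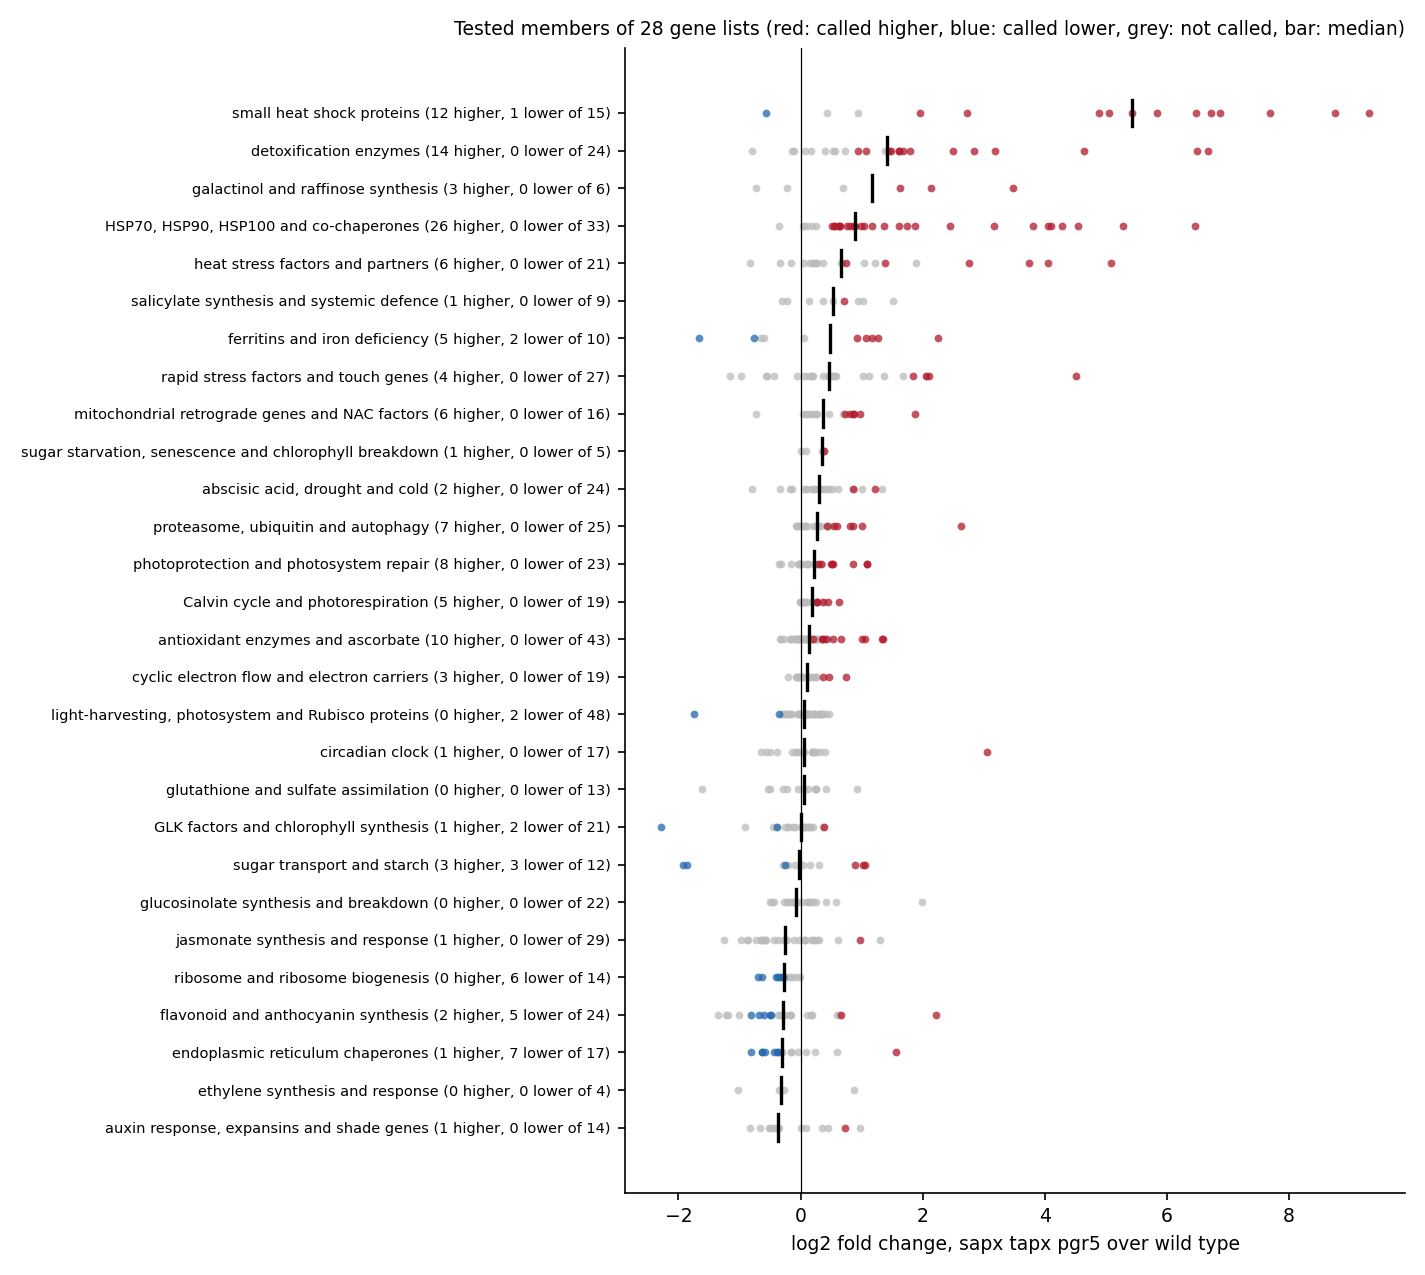
Log2 fold change of sapx tapx pgr5 over wild type for the tested members of the 28 pathway lists, 1 row per list; points are genes and the line is the list's median. Small heat shock proteins have a median of 5.43 and detoxification enzymes of 1.42, while endoplasmic reticulum chaperones have a median of -0.31.

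In the list of photoprotection and photosystem repair, 8 of 23 members rose. All were tested and 0 were called lower (median 0.22). ELIP2, a light-induced protein that binds pigments, had 469, 495 and 567 CPM in sapx tapx pgr5, against 225, 214 and 282 CPM in wild type (1.09 ± 0.13, adjusted p = 0.000340), and averaged 529.8 ± 61.3 CPM in pgr5 and 207 ± 24.8 CPM in sapx tapx. It was not called against pgr5 (-0.05 ± 0.13, adjusted p = 0.895). ZEP, which makes violaxanthin from zeaxanthin, had 929, 1038 and 988 CPM in sapx tapx pgr5, against 737, 635 and 684 CPM in wild type (0.52 ± 0.07, adjusted p = 0.000833). STN8, the kinase of photosystem II core proteins, had 118, 131 and 142 CPM in sapx tapx pgr5, against 96.2, 85.7 and 93.9 CPM in wild type (0.51 ± 0.09, adjusted p = 0.00478). Against pgr5 0 members of the list were called higher, and against sapx tapx 6. The list's higher calls numbered 5 with the 6 libraries alone.

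Of 19 genes of cyclic electron flow and electron carriers 3 were called higher and 0 lower. The minor leaf ferredoxin gene FD1 had 611, 617 and 664 CPM in sapx tapx pgr5, against 391, 320.4 and 417 CPM in wild type (0.75 ± 0.10, adjusted p = 0.000823), and the main one, FD2, had 2439, 2445 and 2631 CPM in sapx tapx pgr5, against 1799.7, 1839 and 1777 CPM in wild type (0.47 ± 0.06, adjusted p = 0.000426). Of 48 light-harvesting, photosystem and Rubisco genes 2 were called lower and 0 higher. One was RBCS2B (AT5G38420, chromosome 5, 15380945 to 15382035), a Rubisco small subunit with near-identical copies, which had 1472, 1495 and 1237 CPM in sapx tapx pgr5, against 5340.1, 3902 and 4795 CPM in wild type (-1.74 ± 0.14, adjusted p = 1.43e-05). Each triple mutant library lay below every wild type library. In pgr5 RBCS2B had 1770, 1355 and 1736 CPM, and in sapx tapx 5166, 4299 and 4693 CPM. Leaving out 1 library gave 2 or 3 higher calls in the list of electron carriers. In the list of light-harvesting genes it gave 1 lower call without sapx tapx pgr5 replicate 1 or 2 or wild type replicate 1 or 3, and 4 were lower with library size scaling only or limma on RPKM. With the gene length trend removed 2 were higher and 5 lower, and 1 was higher without sapx tapx pgr5 replicate 2 or 3 or wild type replicate 2.

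GLK1 (AT2G20570, chromosome 2, 8855358 to 8857756), a transcription factor for chloroplast genes, was among the lowest of the regulators, with 19.4, 58.8 and 23.8 CPM in sapx tapx pgr5, against 170.1, 119.8 and 210.4 CPM in wild type (-2.29 ± 0.36, adjusted p = 0.00201). In pgr5 GLK1 had 37.6, 30.8 and 42.8 CPM, and in sapx tapx 146, 204 and 156 CPM. Of 21 genes in the list of GLK1, which adds chlorophyll synthesis, 2 were called lower and 1 higher. The list had 0 higher without wild type replicate 1 or 3 and 4 lower with library size scaling only. The chlorophyll synthesis gene CRD1, the second called lower, had 1942, 1983 and 2087 CPM in sapx tapx pgr5, against 2638, 2368 and 2844 CPM in wild type (-0.38 ± 0.08, adjusted p = 0.00930), and was not called with the 6 libraries alone. Of 19 genes of the Calvin cycle and photorespiration 5 were called higher and 0 lower. The photorespiratory transaminase gene AGT1 had 2969, 3169.8 and 2739 CPM in sapx tapx pgr5, against 2166.5, 2141 and 2209.6 CPM in wild type (0.45 ± 0.09, adjusted p = 0.00680), and CP12-2, a redox linker of Calvin cycle enzymes, had 406, 376 and 439.6 CPM in sapx tapx pgr5, against 264, 262 and 263 CPM in wild type (0.63 ± 0.08, adjusted p = 0.000369). That list's count was 2 with library size scaling, with the 6 libraries alone, with limma on RPKM, and without sapx tapx pgr5 replicate 1 or 3 or wild type replicate 2, and 3 without wild type replicate 1 or 3 or both second replicates.

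The ferritins FER1 and FER3 were higher. Of 15 ferritin and iron deficiency genes 10 were tested, 5 were called higher and 2 lower (median 0.48). FER1 (AT5G01600, chromosome 5, 227953 to 230051), the main leaf ferritin, which stores iron inside plastids, had 2173, 2038 and 2253 CPM in sapx tapx pgr5, against 232, 725 and 407 CPM in wild type (2.25 ± 0.39, adjusted p = 0.00385). FER3 had 331, 242 and 334 CPM in sapx tapx pgr5, against 108, 198 and 125 CPM in wild type (1.07 ± 0.21, adjusted p = 0.00758). FRO7, an iron reductase of the chloroplast, had 147, 121 and 173 CPM in sapx tapx pgr5, against 52.2, 84.3 and 60.2 CPM in wild type (1.16 ± 0.20, adjusted p = 0.00430). The transporter gene OPT3, called lower, had 61.2, 55.1 and 65.6 CPM in sapx tapx pgr5, against 104, 78.9 and 125 CPM in wild type (-0.76 ± 0.15, adjusted p = 0.00786). FER3 and OPT3 were not called with the 6 libraries alone. The list then had 2 higher and 0 lower calls, and it had 3 higher calls without sapx tapx pgr5 replicate 1 or 3 or wild type replicate 1 or 3, with 1 lower in the last case. For FER1 the lowest triple mutant library still stood above the highest wild type library, which was the second.

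Flavonoid and anthocyanin genes were mixed. Of 30 members 24 were tested, 5 were called lower and 2 higher (median -0.29). UGT78D1, a flavonol rhamnosyltransferase, had 86.9, 114 and 87.8 CPM in sapx tapx pgr5, against 168, 143 and 154 CPM in wild type (-0.69 ± 0.12, adjusted p = 0.00465). AT1G06000, another flavonol glycosyltransferase, had 118, 107 and 99.6 CPM in sapx tapx pgr5, against 207, 189 and 174 CPM in wild type (-0.81 ± 0.12, adjusted p = 0.00174). MYBL2, a repressor of anthocyanin synthesis, had 107, 36.0 and 92.9 CPM in sapx tapx pgr5, against 11.5, 32.7 and 6.77 CPM in wild type (2.22 ± 0.56, adjusted p = 0.0269), a call lost on leaving out sapx tapx pgr5 replicate 1 (0.0913), sapx tapx pgr5 replicate 3 (0.0752), wild type replicate 1 (0.0922) or wild type replicate 3 (0.0902). Lower calls numbered 8 without wild type replicate 2, 9 without both second replicates and 3 with the 6 libraries alone. Higher calls numbered 0 there and without sapx tapx pgr5 replicate 1 or 3 or wild type replicate 1 or 3, and 1 with library size scaling only or limma on RPKM.

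Rapid stress and jasmonate genes had few calls with all libraries. Of 29 rapid stress and touch genes 27 were tested and 4 were called higher, against 1 of 30 jasmonate genes (29 tested). ZAT7, a zinc finger factor, had 18.15, 4.31 and 9.62 CPM in sapx tapx pgr5, against 0.167, 1.21 and 0 CPM in wild type (4.52 ± 0.84, adjusted p = 0.00564). ZAT6 had 24.5, 10.6 and 27.8 CPM in sapx tapx pgr5, against 5.50, 8.65 and 3.46 CPM in wild type (1.84 ± 0.35, adjusted p = 0.00713), with no call in the 6 libraries alone. Without wild type replicate 2 the rapid stress list had 11 higher calls and without both second replicates 19, and it had 2 without wild type replicate 3. The jasmonate list's median was -0.26 with all libraries and 1.3 without wild type replicate 2. It then had 3 higher calls and 1 lower, and 14 higher and 1 lower without both second replicates. The median was 0.05 without sapx tapx pgr5 replicate 2 and 0.18 with limma on RPKM, so the direction of the jasmonate list turned on leaving out either second replicate and with that model.

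**Figure D5:**
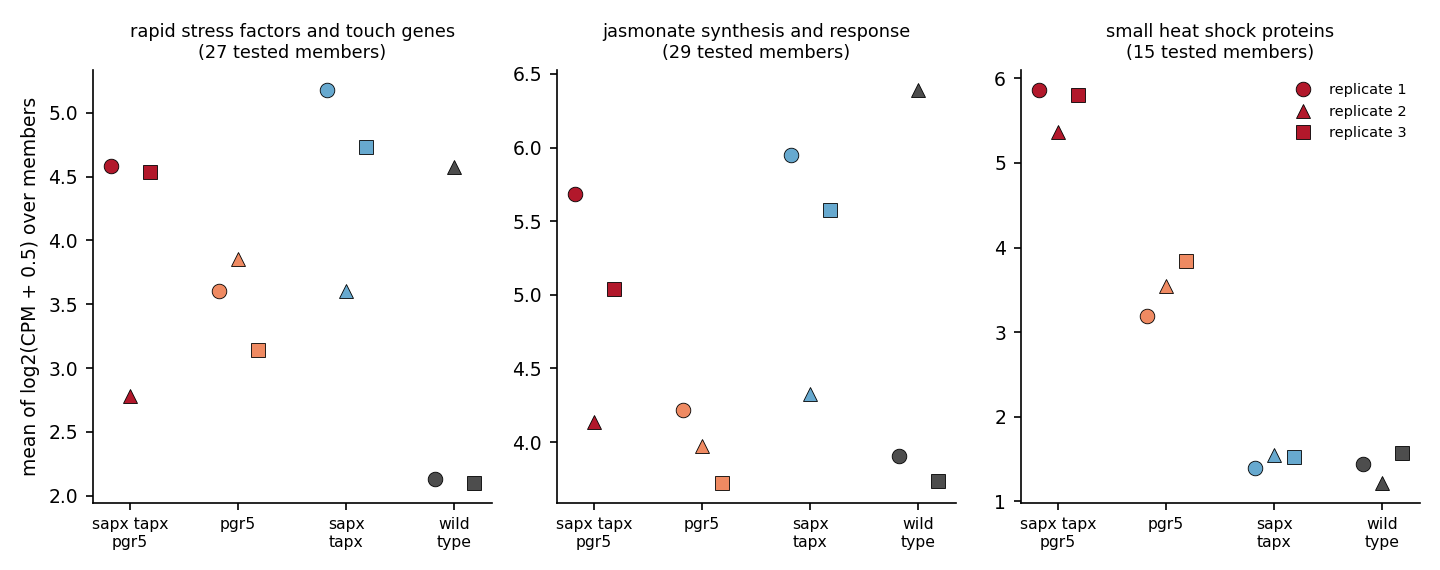
Mean log2(CPM + 0.5) over the tested members of the rapid stress list (27 genes), the jasmonate list (29 genes) and the small heat shock list (15 genes), for each library of sapx tapx pgr5, pgr5, sapx tapx and wild type. The second wild type library stands high in the first 2 lists at 4.58 and 6.39, while in the small heat shock list every sapx tapx pgr5 library lies above every wild type library.

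Ribosome and ribosome biogenesis genes gave 6 lower calls and 0 higher among 14 members, all tested. PUM24, a nucleolar factor, had 24.7, 23.5 and 26.0 CPM in sapx tapx pgr5, against 36.3, 37.4 and 40.9 CPM in wild type (-0.63 ± 0.11, adjusted p = 0.00419). The list's lower calls numbered 1 with the 6 libraries alone or without both second replicates, 2 without sapx tapx pgr5 replicate 1 or 2 or wild type replicate 1, and 3 without wild type replicate 2. In sugar transport and starch, with 12 members tested, 3 were called higher and 3 lower. BAM1, a beta-amylase of the chloroplast, had 185, 169 and 198 CPM in sapx tapx pgr5, against 87.0, 91.7 and 87.6 CPM in wild type (1.05 ± 0.09, adjusted p = 3.29e-05). G6PD3, a plastid glucose 6-phosphate dehydrogenase, had 7.93, 8.46 and 9.17 CPM in sapx tapx pgr5, against 18.8, 48.5 and 25.8 CPM in wild type (-1.86 ± 0.31, adjusted p = 0.00301). Within this list, calls numbered 1 in each direction with the 6 libraries alone and without sapx tapx pgr5 replicate 3 or wild type replicate 1 or 3, with 1 lower call also without sapx tapx pgr5 replicate 2.

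Other lists had few calls. Of 7 genes of galactinol and raffinose synthesis, which make protective sugars, 6 were tested, 3 were called higher and 0 lower, with 1 higher without sapx tapx pgr5 replicate 1, wild type replicate 1 or wild type replicate 3. GOLS1, a galactinol synthase gene, had 53.9, 36.9 and 53.2 CPM in sapx tapx pgr5, against 11.3, 21.3 and 13.9 CPM in wild type (1.63 ± 0.24, adjusted p = 0.00119). Of 24 abscisic acid, drought and cold genes tested 2 were called higher, with 0 without sapx tapx pgr5 replicate 1, 1 without wild type replicate 1 or 3 and 7 without wild type replicate 2. Of 9 salicylate genes tested 1 was called higher, with 0 without sapx tapx pgr5 replicate 1 or wild type replicate 3 and 2 without wild type replicate 2. Of 14 auxin, expansin and shade genes tested 1 was called higher, with 0 without any 1 library except the second of either group. Of 5 starvation and senescence genes tested 1 was called higher, the chlorophyll breakdown gene PAO (0.38 ± 0.07, adjusted p = 0.00795), which was not called with the 6 libraries alone, and 2 were called without wild type replicate 1. Glucosinolate genes (22 tested) had 0 calls by edgeR and DESeq2, 1 lower by limma on RPKM, 2 at an unadjusted p under 0.05, and 3 higher without wild type replicate 2. Ethylene genes (4 tested) had 0 by edgeR, DESeq2 and limma, 0 at an unadjusted p under 0.05, and 1 higher without wild type replicate 2. Of 17 clock genes 1 was called, with 2 without wild type replicate 3. It was RVE1, a morning factor that had 25.7, 13.9 and 28.3 CPM in sapx tapx pgr5, against 2.00, 3.98 and 2.205 CPM in wild type (3.05 ± 0.39, adjusted p = 0.000503). PR1, the salicylate marker, was not tested and had 21 reads over the triple mutant libraries against 0 in wild type, at least 6.74-fold higher when 3 reads over the group are the floor.

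Outside all lists, the genes were taken by size of change. RNS1, a ribonuclease, had 302 reads over the triple mutant libraries against 3 in wild type, a ratio of 96.9 (95% counting interval 32.9 to 473). The glucosyltransferase gene UGT74F2 had 28.4, 14.2 and 27.5 CPM in sapx tapx pgr5, against 1.00, 0.865 and 0.472 CPM in wild type (4.88 ± 0.42, adjusted p = 2.48e-05), and UGT73C1 had 21.1, 16.3 and 20.5 CPM in sapx tapx pgr5, against 1.33, 1.21 and 2.05 CPM in wild type (3.63 ± 0.27, adjusted p = 7.91e-06). EGY3, a metalloprotease homologue of the chloroplast, had 65.4, 80.9 and 92.5 CPM in sapx tapx pgr5, against 3.17, 5.54 and 5.04 CPM in wild type (4.11 ± 0.28, adjusted p = 4.10e-06). The J-domain gene AT2G20560 had 135, 106 and 143 CPM in sapx tapx pgr5, against 7.002, 6.58 and 12.9 CPM in wild type (3.85 ± 0.23, adjusted p = 1.52e-06). For each of these the ranges of the groups did not overlap.

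At the low end, AT2G33850, annotated as an E6-like protein, had 1 read over the triple mutant libraries against 451 in wild type, 468-fold lower (95% counting interval 83.6 to 18539). It had no read in pgr5 and averaged 11.98 ± 4.15 CPM in sapx tapx. PEL3, an acyltransferase of cuticle formation, had 2.64, 3.23 and 2.26 CPM in sapx tapx pgr5, against 7.502, 14.4 and 12.9 CPM in wild type (-2.09 ± 0.33, adjusted p = 0.00212). DGAT3, a diacylglycerol acyltransferase, had 24.5, 27.1 and 21.5 CPM in sapx tapx pgr5, against 98.2, 46.7 and 77.0 CPM in wild type (-1.60 ± 0.24, adjusted p = 0.00154). Abundant transcripts were taken by the size of their loss in CPM. The methionine synthase gene ATMS1 had 2237, 2228 and 2440.2 CPM in sapx tapx pgr5, against 3325, 2995 and 3718 CPM in wild type (-0.54 ± 0.09, adjusted p = 0.00395), and SAHH2, which clears S-adenosylhomocysteine, had 907, 1097 and 872 CPM in sapx tapx pgr5, against 1620.0, 1388 and 1541 CPM in wild type (-0.66 ± 0.10, adjusted p = 0.00153). FIB, a plastoglobule protein, was among the largest gains in CPM, with 1490.2, 1697 and 1717 CPM in sapx tapx pgr5, against 820.4, 792 and 963 CPM in wild type (0.93 ± 0.10, adjusted p = 0.000134).

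Markers of leaf cell types were read beside these differences, since in bulk leaves fewer cells of a type and less RNA per cell cannot be told apart. Trichome markers had 14 members, of which 7 were tested, 4 were called lower and 0 higher (median -1.23). They summed to 34.4, 52.6 and 28.4 CPM in sapx tapx pgr5, against 76.2, 54.5 and 83.5 CPM in wild type, with the second library of each group nearest the other. GL2, which specifies trichomes, had 3 reads over the triple mutant libraries against 86 in wild type, 29.8-fold lower (95% counting interval 9.85 to 147). It averaged 0.430 ± 0.114 CPM in pgr5 and 2.90 ± 0.900 CPM in sapx tapx. GL1 had 0 reads over the triple mutant libraries and 1 over those of wild type. The trichome gene MYB5 had 0 reads against 12, at least 4.15-fold lower on the floor of 3 reads per group. Lower calls of the list numbered 2 without sapx tapx pgr5 replicate 1 and 1 with the 6 libraries alone. The part of trichomes in the other lower genes was not tested.

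Of 5 epidermis markers 2 were called lower, and of 8 phloem markers 3 were called higher. PDF1 had 16.9, 22.2 and 17.595 CPM in sapx tapx pgr5, against 34.5, 44.5 and 50.2 CPM in wild type (-1.19 ± 0.22, adjusted p = 0.00608). The phloem sucrose carrier gene SUC2 had 177, 193 and 219 CPM in sapx tapx pgr5, against 72.0, 83.1 and 87.9 CPM in wild type (1.28 ± 0.11, adjusted p = 2.09e-05). Leaving out 1 library gave 2 or 3 calls in each of these lists. All 9 guard cell markers had negative log2 fold changes (median -0.53), with 1 called lower and 6 at an unadjusted p under 0.05. They summed to 70.5, 76.2 and 69.6 CPM in sapx tapx pgr5, against 103, 98.7 and 98.6 CPM in wild type. These groups did not overlap. In pgr5 the sums were 84.8, 81.2 and 80.7 CPM, and in sapx tapx 89.9, 80.8 and 87.8 CPM. All of these were below every wild type sum too. The part of guard cells in other results was not tested. Dividing cell markers gave 1 lower call of 6 and mesophyll markers 1 higher of 4. Of 7 root markers 2 were tested and 1 was called higher, and PIN2, EXPA7 and COBL9 had 0 reads in all 6 libraries. Each of these single calls was lost without sapx tapx pgr5 replicate 1. The guard cell call, FAMA, held on leaving out any other 1 of the 6 libraries. CDKB2;1 was also lost without sapx tapx pgr5 replicate 2 or wild type replicate 2 or 3, PYK10 without sapx tapx pgr5 replicate 2 or wild type replicate 1 or 3, and CA1 without sapx tapx pgr5 replicate 3 or wild type replicate 2 or 3. The mesophyll markers stood at 46612, 46113 and 49098 CPM in sapx tapx pgr5, against 44974, 36198 and 42149 CPM in wild type, the highest sums of any marker list.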

How the data were processed

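A separate table for each library was deposited by the authors. Per the file headers it lists, for every gene, raw counts of total exon, unique exon, whole-gene and intron reads, with RPKM values and TPM values. The deposited RPKM and TPM were used only in alternatives. The genome build was TAIR version 10, per the submitters' processing notes. No aligner or counting tool is named there (not given in the sources used here). The TruSeq RNA kit v2, named in the labels' protocols, does not mark strand, so overlapping genes on opposite strands cannot be told apart.

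The total exon reads entered edgeR 4.0.16, run in R 4.3.3 (TMM, filterByExpr, 1 quasi-likelihood fit over 12 libraries). SE is the size of the log2 fold change divided by the square root of the F statistic. Levels are CPM with TMM scaling. DESeq2 1.42.0 and limma 3.58.1 served alternatives, with a pseudocount of 0.5 for limma. Matching on the locus code named 28009 of 28642 genes. Intervals and floors (3 reads) cover counting error only. On simulated data for the triple mutant and wild type (16212 genes), 70 of 100 genes changed 2-fold and 100 of 100 changed 4-fold were recovered, and 6 of 176 calls were unchanged genes. Changed genes were drawn only from those above a set mean level. The simulated spread followed a gene's level alone, and no library stood apart as the second ones do here. The shares of true and false calls in the real data were thus not tested.

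The 35 lists (28 pathways, 7 markers, 686 members, 592 tested) and all members were chosen with earlier results of these data known. Named genes are up to 6 called members of a list by size of change, its first 3 members, members called against their list, the 15 highest and 15 lowest called genes of no list at 10 CPM or more, the 10 largest gains and losses in CPM, and markers. The labels do not say that replicates came from separate plants, so p-values reflect only how far these samples spread, which may be technical. No pair of replicates among the 6 libraries agreed within sampling noise (chi-square of 4.05 to 13.3 per degree of freedom).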

Additional observations from a re-analysis of the deposited data

How the results depend on the processing

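The total of 1685 called genes (1016 higher, 669 lower) was 731 with the 6 libraries fitted alone (536 higher, 195 lower) and 2599 without both second replicates (1647 higher). Lower calls numbered 1194 with library size scaling only and 1108 with limma on RPKM. Leaving out 1 library at a time gave 865 to 1853 calls, with 576 to 1166 higher and 274 to 687 lower. The alternatives for the parent genotypes were chosen after seeing the data. Calls against pgr5, 252 with all libraries, numbered 112 to 341 in this way and 647 without both second replicates, and those against sapx tapx 746 to 1523. Intron calls, 34 with all libraries, numbered 15 to 130. The difference in the share of heat genes was 1.07 percentage points, 0.975 to 1.14 on leaving out 1 library and 0.832 as a share of the deposited TPM. With the replicate number as a block (replicate block), 2132 genes were called against wild type, 416 against pgr5 (76.9% higher, against 87.3% without the block and 70.7% with library size scaling only) and 1536 against sapx tapx, and the light-harvesting list had 8 higher and 3 lower calls. Deviations of same-numbered triple mutant and wild type libraries correlated at -0.30, -0.66 and -0.20. The second libraries stood apart in opposite directions, so these values cannot show whether same-numbered samples were handled together. The labels link them only by number. No named gene that was called changed sign in an alternative run, while the median of the jasmonate list did. Signs of the other called genes were not compared. Of the 164 named genes that were called, 97 kept their call in every alternative run and 64 lost it with the 6 libraries alone. That fit has fewer samples to estimate the spread. The cause of the lost calls was not tested in any run. Short genes had higher fold changes than long ones (when split by length into 3 equal parts, median 0.09 in the shortest and -0.07 in the longest), and removing this trend gave 1060 higher and 714 lower calls.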

Other observations

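Product names in the reference annotation gave further groups, chosen after their values were seen and given here as counts beside a background of 10.3% called. Glycine-rich proteins, a mixed set of small proteins, had 11 higher and 1 lower of 28 tested. Glucosyltransferases annotated as UDP-glucosyl transferase, which join glucose to small molecules, had 9 higher and 1 lower of 23 tested. The thioredoxin superfamily, which passes electrons to protein disulfides, had 8 higher and 0 lower of 36 tested. J-domain proteins are partners of HSP70. Those annotated as the chaperone DnaJ-domain superfamily had 9 higher and 0 lower of 46 tested, and those annotated by a DNAJ heat shock N-terminal domain had 1 higher and 0 lower of 24 tested. Kinases annotated as the leucine-rich repeat protein kinase family had 0 higher and 12 lower of 73 tested, and cysteine-rich receptor-like kinases had 2 higher and 0 lower of 16 tested. Calls were spread over the nuclear chromosomes, with 5.88% to 6.55% of tested genes higher and 3.71% to 4.45% lower on each.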
